A study of Homo sapiens with 6 samples.

Results

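GAS6 and the TAM receptor axis were examined in OVCAR8 cells as a group of 5 genes: the ligands GAS6 and PROS1 and the receptors AXL, TYRO3 and MERTK. The genes were taken by name from the deposited expression table, which lists 14930 genes, and all 5 were in it. GAS6 was chosen by its large fall in these same samples, so its values are given as a description with no test. PROS1, AXL, TYRO3 and MERTK joined as its pathway partners and were tested.

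The study used RNA-Seq to ask how transcription in ovarian cancer cells changes when the histone methyltransferase EZH2 is depleted. OVCAR8 is an established line from high grade serous ovarian cancer. The 6 samples form 3 groups of 2: control cells given the vehicle DMSO (Ctrl), cells given DZNep, an inhibitor of S-adenosylhomocysteine hydrolase that lowers EZH2 protein (DZNep), and cells with doxycycline-induced EZH2 silencing (shEZH2). Treatment lasted 72 hours in every group. The labels give the DZNep dose as 5 mM and doxycycline as 1 mg/mL, whereas the methods of the study give 5 μM and 1 μg/mL. The hairpin was under a Tet-On promoter in a derived line, OVCAR8-shEZH2#2, a single hairpin. The labels do not say whether the control cells carried it, so EZH2 silencing, doxycycline and carriage of the hairpin cannot be told apart in the shEZH2 group. Nothing states that the replicates were separate cultures, so every p-value below measures only the spread between these samples.

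TAM receptors are a family of receptor tyrosine kinases named for TYRO3, AXL and MERTK. Their ligands, GAS6 and protein S, are vitamin K-dependent proteins whose Gla domain holds phosphatidylserine on dying cells or membrane fragments while the other end of the ligand binds the receptor. GAS6 binds all of the receptors and is the ligand of AXL, whereas protein S, the product of PROS1 and also a cofactor in blood coagulation control, acts through TYRO3 and MERTK. In macrophages the axis serves the engulfment of dying cells and restrains cytokine signals. In carcinoma cells AXL is best known for its association with invasion and drug resistance.

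Each value below is the deposited expression value, scaled by the authors to a near-equal total in each sample and rounded to whole numbers. Totals ran from 999956 to 1000068, the values are not read counts, and the read depth is unknown. Across 78 cytosolic ribosomal protein genes of 295 to 7573 bases, the slope of log2 value on log2 transcript length was 0.06, so the values behaved as per-length values and levels are compared between genes on that scale. Fold changes are differences of log2(value + 1) after TMM scaling (factors 0.92 to 1.12), from a limma fit over all 6 samples and the 9671 genes that reached 10 in 2 or more samples. A gene was called at a Benjamini-Hochberg adjusted p under 0.05 over those 9671 genes. All 5 genes passed the filter, GAS6 through Ctrl and shEZH2 alone. The shEZH2 replicates lay closer to each other than the other pairs: the SD over genes of the log2 difference between replicates was 0.141 in shEZH2, 0.428 in Ctrl and 0.447 in DZNep.

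EZH2, the targeted gene (chr7:148807257-148884321, minus strand), was at 36 and 42 in Ctrl, 26 and 26 in DZNep and 18 and 18 in shEZH2. The groups did not overlap. The fall was -1.12 on the log2 scale in shEZH2 (SE 0.18, limma adjusted p = 0.0160) and -0.63 in DZNep (SE 0.18, limma adjusted p = 0.0255), and the shEZH2 and DZNep groups were not separated by the test (limma adjusted p = 0.133).

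Markers of the labelled cell type were read in the same samples. Of 14 markers of serous ovarian carcinoma epithelium, 10 were in the table and 7 had a mean of at least 10, with PAX8, a lineage factor of these tumours, at 10 to 19 and WT1 at 1 to 2. Their sum was 5340 to 5711 in Ctrl, 9562 to 10628 in DZNep and 5781 to 5782 in shEZH2. The keratins KRT8 and KRT18 were higher in DZNep, with log2 fold changes of 1.77 (limma adjusted p = 0.000851) and 1.66 (limma adjusted p = 0.00126). The surface protein MSLN and PAX8 were lower, at -2.06 (limma adjusted p = 0.000483) and -0.68 (limma adjusted p = 0.0277). Of 10 macrophage markers 3 were in the table. CD14 was at 1 to 2 and CSF1R at 0 to 4, while CD68, a lysosomal protein that other cells also make, was at 70 and 65 in Ctrl, 18 and 15 in DZNep and 32 and 28 in shEZH2. The summed macrophage list was 66 to 72 in Ctrl, 20 to 23 in DZNep and 31 to 35 in shEZH2. Endothelial markers (3 of 5 in the table) summed to 2 to 5 in every sample. Fibroblast markers (3 of 6 in the table) summed to 25 to 28, 53 to 69 and 46 to 53, with LUM at 0 to 2. In that list PDGFRB was at 12 and 11, 56 and 42, and 37 and 34, whereas COL1A1 was at 13 and 16 in Ctrl, 12 and 9 in DZNep and 16 and 11 in shEZH2. The part of these marker differences in the results below was not tested.

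The proximal promoters of GAS6, AXL and TYRO3 are shown because the levels of these genes differed most between groups. Each is the 250 bases before the RefSeq start site in GRCh38.p14, read 5′ to 3′ on the gene's own strand. Capitals mark the GC box GGGCGG or its reverse complement, the letters bound by SP1-family factors. The stretches are GAS6 at chr13:113864077-113864326 (minus strand), AXL at chr19:41218973-41219222 (plus strand) and TYRO3 at chr15:41558962-41559211 (plus strand).
GAS6: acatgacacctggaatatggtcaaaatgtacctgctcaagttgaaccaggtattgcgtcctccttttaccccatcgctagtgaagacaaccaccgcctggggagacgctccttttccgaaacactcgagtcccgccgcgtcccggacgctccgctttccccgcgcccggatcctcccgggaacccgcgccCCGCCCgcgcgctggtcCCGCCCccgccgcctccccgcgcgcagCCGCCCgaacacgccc
AXL: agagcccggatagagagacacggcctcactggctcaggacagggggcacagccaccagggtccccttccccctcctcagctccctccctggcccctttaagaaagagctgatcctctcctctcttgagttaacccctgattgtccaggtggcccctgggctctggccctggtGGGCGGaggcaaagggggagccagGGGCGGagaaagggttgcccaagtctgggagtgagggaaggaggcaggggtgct
TYRO3: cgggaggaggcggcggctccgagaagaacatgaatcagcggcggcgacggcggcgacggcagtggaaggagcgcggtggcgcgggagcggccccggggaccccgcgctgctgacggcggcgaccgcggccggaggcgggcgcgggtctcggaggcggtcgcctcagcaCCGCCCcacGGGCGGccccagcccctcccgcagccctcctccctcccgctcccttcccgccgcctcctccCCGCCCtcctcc

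The promoters differed in base composition. GAS6 held 31 CpG dinucleotides, TYRO3 39 and MERTK 25, against 9 for PROS1 and 4 for AXL, where the median over 35116 RefSeq promoters of the same length was 11 (quartiles 3 and 23). GC content was 66.8% for GAS6, 64.4% for AXL and 80.0% for TYRO3, with a median of 58.0% over all promoters. The GC box occurred 3 times in GAS6, 2 in PROS1, 2 in AXL, 3 in TYRO3 and 4 in MERTK, each match also holding a CpG, and 42.6% of all promoters held at least 1. The AP-1 letters TGANTCA occurred once, in TYRO3 (6.57% of all promoters). The TEAD letters GGAATG (11.9% of all) and the E-box CACGTG (6.34%) were in none of the 5 windows, and NGCGTG, the core of a hypoxia response element, occurred once, in GAS6 (32.1%). Both strands were searched. A match is a run of letters, not a bound site.

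GAS6 was the gene with the widest range in the group. GAS6 (ENSG00000183087.15, chr13:113820549-113864076, minus strand, 15 exons in its canonical transcript) encodes the secreted ligand with the Gla domain. It was at 392 and 316 in Ctrl, 8 and 9 in DZNep and 66 and 63 in shEZH2. Ctrl was high, shEZH2 intermediate and DZNep under 10, and no group overlapped another. The Ctrl mean was 354 ± 53.7 (SD, n = 2) against 8.5 ± 0.71 in DZNep and 64.5 ± 2.12 in shEZH2. Ctrl was thus 41.7-fold above DZNep, or 39.3- to 44.3-fold when only the rounding of the deposited values is considered, and 5.49-fold above shEZH2. On the log2 scale the differences were -5.29 in DZNep and -2.48 in shEZH2 (SE 0.20 each), which placed GAS6 2nd lowest and 11th lowest of the 9671 genes. The shEZH2 level was 7.59-fold the DZNep level. These are the values by which GAS6 was chosen. In bulk RNA, fewer cells that make a transcript and less of it per cell cannot be told apart.

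PROS1 did not pass the test in any comparison of the main fit. PROS1 (chr3:93873051-93980003, minus strand) was at 19 and 33 in Ctrl, 12 and 25 in DZNep and 18 and 17 in shEZH2. The Ctrl and DZNep values interleaved, and the replicates of each differed more than the groups did. Within each replicate number, DZNep was below Ctrl. With replicate number as a block, PROS1 passed in DZNep (limma adjusted p = 0.0201), as the closing section gives. The log2 fold change was -0.57 in DZNep (SE 0.30, 95% interval -1.27 to 0.12, limma adjusted p = 0.159) and -0.54 in shEZH2 (SE 0.30, interval -1.24 to 0.15, limma adjusted p = 0.278). Between shEZH2 and DZNep it was 0.03 (SE 0.30, limma adjusted p = 0.962). Without the first Ctrl replicate the DZNep value was -0.88 (limma adjusted p = 0.0446), and without the second DZNep replicate -0.96 (limma adjusted p = 0.0272). PROS1 has an unprocessed pseudogene, PROS2P, on the same chromosome, and reads could be split between them.

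The balance of the ligands turned over. GAS6 was 20.6 and 9.58 times PROS1 in the Ctrl samples, 3.67 and 3.71 times in shEZH2, and 0.667 and 0.36 times in DZNep. GAS6 was therefore the more abundant ligand transcript in Ctrl and shEZH2 and the less abundant in both DZNep samples, as follows from the GAS6 values themselves.

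**Figure D1:**
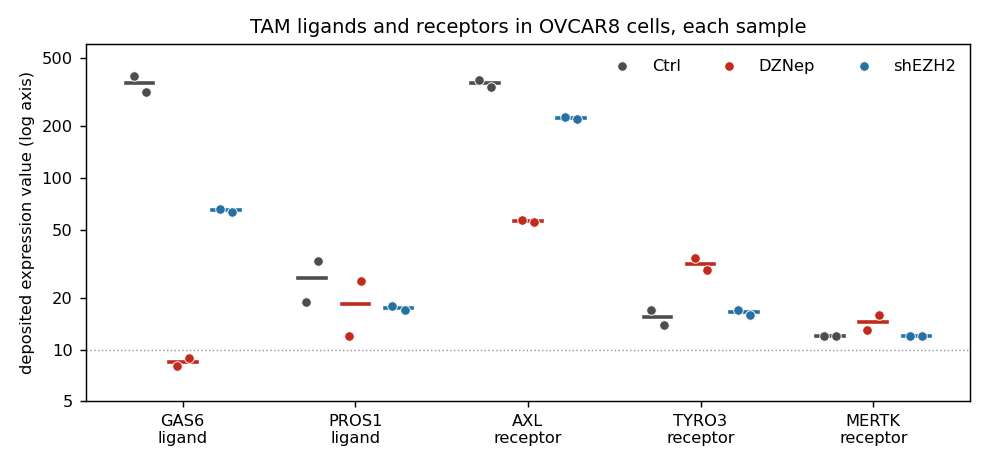
Deposited expression value (log axis) of the ligands and receptors in each of the 6 OVCAR8 samples, with points for samples, horizontal bars for group means and a dotted line at the filter value of 10. GAS6 spans 392 to 8 and AXL 371 to 55, whereas PROS1, TYRO3 and MERTK stay between 12 and 34.

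Among the receptors AXL changed most. AXL (chr19:41219223-41261766, plus strand) is the TAM receptor most often described in carcinoma cells. It was at 371 and 338 in Ctrl, 57 and 55 in DZNep and 226 and 219 in shEZH2. The order was the one seen for GAS6, with DZNep lowest and shEZH2 between, and the 3 groups were apart. AXL fell by 2.71 on the log2 scale in DZNep (SE 0.18, limma adjusted p = 7.07e-05), a 6.33-fold difference in means, and was 78th lowest of the 9671 genes. The shEZH2 level was 3.97-fold the DZNep level, a direct log2 difference of 1.99 (SE 0.18, limma adjusted p = 0.00256).

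AXL in shEZH2 lay close to the threshold. The difference from Ctrl was -0.72 (SE 0.18, 95% interval -1.13 to -0.30, limma adjusted p = 0.0496), a 1.59-fold difference in means and 738th lowest of 9671. Both shEZH2 samples were below both Ctrl samples, but the call was lost under 10 of 17 alternative settings, with adjusted p up to 0.386. It was lost when any one sample of Ctrl or shEZH2 was left out (adjusted p 0.0600 to 0.386).

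TYRO3 moved the other way in DZNep. TYRO3 (chr15:41557675-41583589, plus strand), a TAM receptor known mainly from the nervous system, was at 17 and 14 in Ctrl, 34 and 29 in DZNep and 17 and 16 in shEZH2. Both DZNep samples were above the other 4, which overlapped. TYRO3 rose by 0.91 in DZNep (SE 0.24, limma adjusted p = 0.0166), a 2.03-fold difference in means, but without the second Ctrl replicate the value was 0.70 (limma adjusted p = 0.0723) and without the first DZNep replicate 0.68 (limma adjusted p = 0.0722). In shEZH2 it was 0.04 (SE 0.24, 95% interval -0.50 to 0.59, limma adjusted p = 0.919). The direct difference of shEZH2 from DZNep was -0.87 (SE 0.24, limma adjusted p = 0.0572). A processed pseudogene, TYRO3P, lies elsewhere on chromosome 15, and reads could be split between them.

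MERTK was low and level. MERTK (chr2:111898607-112029561, plus strand), the receptor known for engulfment by macrophages and retinal pigment epithelium, was at 12 and 12 in Ctrl, 13 and 16 in DZNep and 12 and 12 in shEZH2. The difference was 0.18 in DZNep (SE 0.19, 95% interval -0.25 to 0.61, limma adjusted p = 0.467) and -0.05 in shEZH2 (SE 0.19, interval -0.47 to 0.38, limma adjusted p = 0.894). Between shEZH2 and DZNep the difference was -0.22 (SE 0.19, limma adjusted p = 0.478).

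The counts of calls can be read against all genes. In DZNep 1 of the 4 tested members was higher and 1 lower, where 22.4% of all tested genes were called higher and 20.4% lower. In shEZH2 1 of 4 was lower, where 3.9% of tested genes were higher and 4.53% lower. In the direct comparison of shEZH2 with DZNep 1 of 4 was higher, against 4.88% higher and 4.42% lower over all genes. With 4 genes these counts cannot be set apart from the background. Both comparisons with Ctrl use the same 2 control samples. The all-gene split depended on scaling: with the values as deposited, 812 genes were called higher and 418 lower in shEZH2 (66.0% higher), against 377 and 438 (46.3% higher) after TMM scaling.

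**Figure D2:**
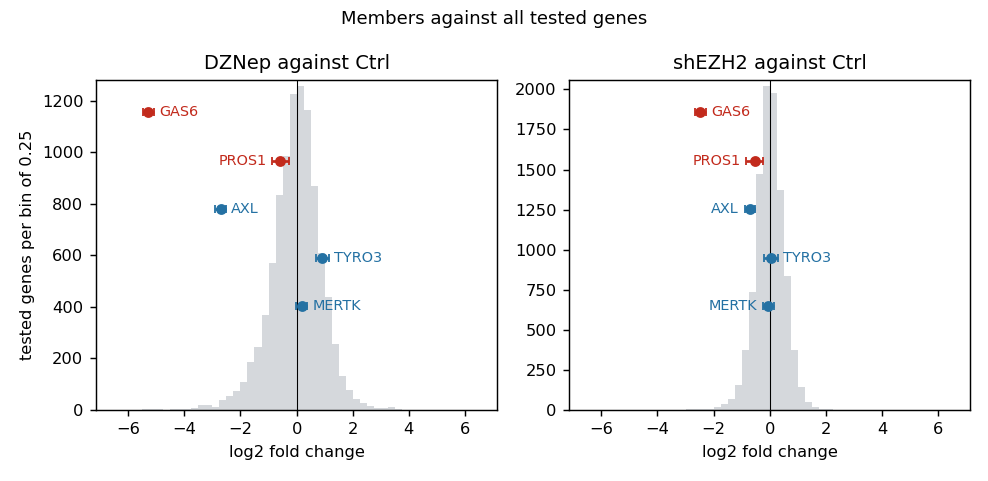
Log2 fold change of the ligands (red) and receptors (blue) with SE bars, over a histogram of all 9671 tested genes (grey, bins of 0.25), the height of each point being arbitrary. In DZNep GAS6 at -5.29 and AXL at -2.71 lie in the left tail and TYRO3 at 0.91 to the right of centre. In shEZH2 GAS6 lies at -2.48 and the other members between -0.72 and 0.04.

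The make-up of the receptor transcripts shifted with DZNep. The summed level of AXL, TYRO3 and MERTK was 400 and 364 in Ctrl, 104 and 100 in DZNep and 255 and 247 in shEZH2. AXL made up 92.8% and 92.9% of that sum in Ctrl, 88.6% and 88.7% in shEZH2, and 54.8% and 55.0% in DZNep. TYRO3 made up 4.25% and 3.85%, 6.67% and 6.48%, and 32.7% and 29.0% in the same order, and MERTK made up 3.0% to 4.86% outside DZNep. AXL was 21.8 and 24.1 times TYRO3 in Ctrl and 1.68 and 1.9 times in DZNep, so AXL was the most abundant TAM transcript in all 6 samples.

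Ligand and receptor stood at the same level in the controls. GAS6 was 1.06 and 0.935 times AXL in the Ctrl samples, 0.292 and 0.288 times in shEZH2 and 0.14 and 0.164 times in DZNep. In order of mean level, Ctrl ran AXL (354.5 ± 23.3), GAS6, PROS1 (26 ± 9.9), TYRO3 (15.5 ± 2.12) and MERTK (12 ± 0), all as SD with n = 2, and the ranges of AXL and GAS6 overlapped. DZNep ran AXL (56 ± 1.41), TYRO3 (31.5 ± 3.54), PROS1 (18.5 ± 9.19), MERTK (14.5 ± 2.12) and GAS6, with PROS1 and MERTK overlapping. In shEZH2 the order was AXL (222.5 ± 4.95), GAS6, PROS1 (17.5 ± 0.71), TYRO3 (16.5 ± 0.71) and MERTK (12 ± 0), and PROS1 and TYRO3 met at 17. GAS6 thus moved from level with AXL to last of the 5.

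The TAM receptors were next placed among the receptor tyrosine kinases, of which 43 were in the table. By mean level AXL ranked 1st in Ctrl, 6th in DZNep and 1st in shEZH2. PTK7, a pseudokinase of Wnt signalling, was 2nd in each group, at 160 to 202 in all 6 samples. TYRO3 ranked 20th, 13th and 20th, and MERTK 23rd, 21st and 21st. In DZNep the first place was held by EPHA2, a receptor for ephrin-A ligands, which rose from 37 and 31 in Ctrl to 305 and 283 in DZNep (log2 fold change 3.01, SE 0.20, limma adjusted p = 7.24e-05) and to 150 and 131 in shEZH2 (1.97, limma adjusted p = 0.00484). EGFR, the receptor for epidermal growth factor, was 3rd in Ctrl at 83 and 107, and fell to 21 and 17 in DZNep (-2.33, limma adjusted p = 0.000262) and 38 and 32 in shEZH2 (-1.46, limma adjusted p = 0.0140).

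Of 55 other receptor tyrosine kinases on the list, 40 were in the table and 23 were tested. In DZNep 4 were called higher (17.4%) and 6 lower (26.1%), against 22.4% and 20.4% over all genes, and the median of the 23 log2 fold changes was 0.26 against 0.02. In shEZH2 3 were higher and 3 lower (13.0% each), against 3.9% and 4.53% over all genes, with a median of 0.11. Among the called genes FLT1 reached 10 in DZNep alone, and EPHA10 and TIE1 in Ctrl alone. MST1R, called lower in DZNep, also reached 10 in Ctrl alone. These genes were tested only through the group where they were high, so the shares are not read as an excess. PDGFRB, a receptor for platelet-derived growth factor, rose from 12 and 11 to 56 and 42 in DZNep (1.92, limma adjusted p = 0.000847) and to 37 and 34 in shEZH2 (limma adjusted p = 0.0162). FGFR4, a fibroblast growth factor receptor, fell from 50 and 46 to 31 and 16 in DZNep (-1.14, limma adjusted p = 0.0299).

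**Figure D3:**
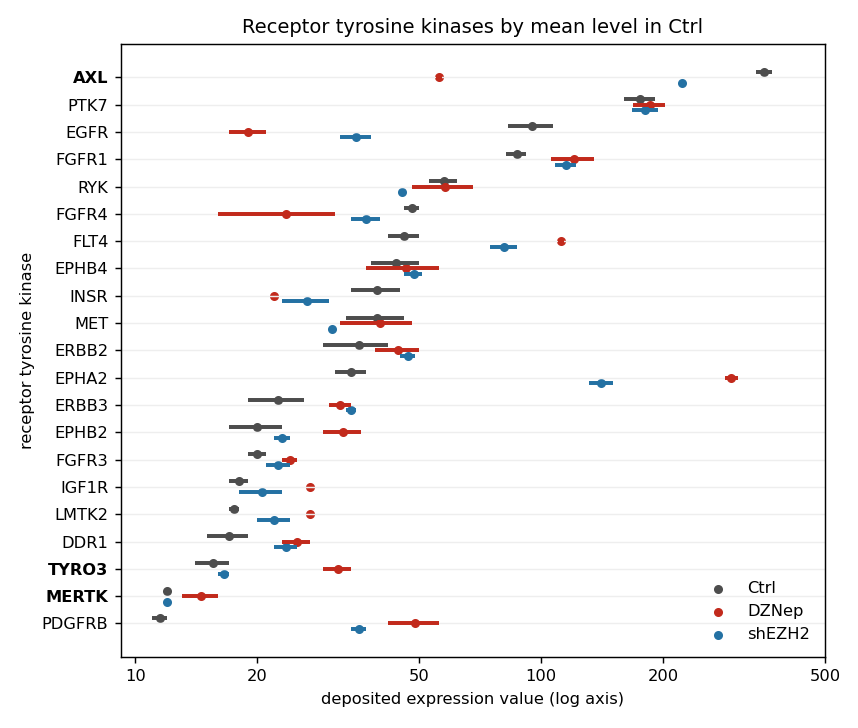
Deposited expression value (log axis) of MERTK and of the receptor tyrosine kinases with a mean of at least 20 in some group, ordered by their Ctrl mean, with points for group means and bars from the lower to the higher replicate. AXL is first in Ctrl and shEZH2, and in DZNep EPHA2 at 305 and 283 is above AXL at 57 and 55.

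Genes around the GAS6 and TAM pathway were taken as fixed lists of 175 genes in all, called pathway genes below. Of these 138 were in the table and 99 were tested. The lists also hold genes that neither make nor read GAS6. Other receptor tyrosine kinases made up 55 of the 175 and 23 of the 99, so the pooled counts do not describe GAS6 signalling alone. In DZNep 23 of the 99 (23.2%) were called higher and 15 (15.2%) lower, against 22.4% and 20.4% over all genes. The median was 0.04. In shEZH2 4 were higher and 4 lower (4.04% each), with a median of -0.01. In shEZH2 against DZNep 5 were higher and 5 lower (5.05% each). The shEZH2 calls were NQO1, FURIN and 6 receptor tyrosine kinases. The other 6 tested lists, with 59 tested genes, had 0 calls by limma in shEZH2, and 16 of those genes had an unadjusted p under 0.05. Over all tested genes 3.9% were called higher and 4.53% lower in shEZH2.

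Maturation of the ligands needs the vitamin K cycle, and its 7 genes were all tested. In DZNep 2 were called higher and 2 lower (28.6% each, median 0.24), against 22.4% and 20.4% over all genes. GGCX, the carboxylase that makes the Gla residues, was at 26 and 21 in Ctrl, 60 and 50 in DZNep and 34 and 30 in shEZH2, and rose by 1.13 in DZNep (SE 0.24, limma adjusted p = 0.00738). NQO1, a quinone reductase, was at 200 and 176, 124 and 135, and 106 and 109, and fell by 0.60 in DZNep (limma adjusted p = 0.0261) and by 0.85 in shEZH2 (limma adjusted p = 0.0287). VKORC1, the epoxide reductase blocked by warfarin, had a log2 fold change of 0.60 in DZNep that missed the threshold (limma adjusted p = 0.0504). Of 12 other Gla proteins 3 were in the table, none high enough to be tested.

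Other ligands were few. Of 5 listed, 3 were tested, and 1 was called higher in DZNep (33.3%), against 22.4% over all genes. LGALS3, galectin-3, described as a ligand of MERTK, was at 35 and 36 in Ctrl, 63 and 73 in DZNep and 52 and 51 in shEZH2, a rise of 0.84 in DZNep (SE 0.16, limma adjusted p = 0.00476). MFGE8, which bridges phosphatidylserine to integrins, was at 23 and 16 in Ctrl and 23 and 20 in DZNep, a difference of 0.08 (limma adjusted p = 0.816).

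TAM receptors are shed from the cell surface by proteases. Of 10 tested genes for secretion and shedding, 2 were higher and 1 lower in DZNep (median -0.38), against 22.4% and 20.4% over all genes. ADAM10, a sheddase of AXL, was at 53 and 97 in Ctrl, 37 and 62 in DZNep and 58 and 57 in shEZH2, and did not pass the test in DZNep (-0.64, limma adjusted p = 0.0845). ADAM17, a sheddase of MERTK, was at 42 and 63 in Ctrl and 29 and 55 in DZNep and did not pass either (-0.43, limma adjusted p = 0.205). Within each replicate number ADAM10 and ADAM17 were lower in DZNep, but the numbers were not taken as pairs. PSEN2, a subunit of gamma-secretase, rose from 18 and 15 to 31 and 30 (0.78, limma adjusted p = 0.0201). FURIN, a proprotein convertase, was called in shEZH2 at 12 and 9 against 5 and 5 in Ctrl (0.88, limma adjusted p = 0.0410), and was named after its values were seen, as the list's single call there. It was at 9 and 10 in DZNep, so FURIN passed the filter only through groups where it was above Ctrl. The call rests on rounded values near the filter.

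Downstream of the receptors, 25 adaptors and kinases were tested. In DZNep 4 were higher and 1 lower (median -0.09), against 22.4% and 20.4% over all genes. BCAR3, an adaptor that binds CAS proteins, was at 52 and 48 in Ctrl, 109 and 109 in DZNep and 90 and 80 in shEZH2, and rose by 1.04 in DZNep (SE 0.18, limma adjusted p = 0.00314). FYN, a Src-family kinase, rose from 29 and 26 to 47 and 54 (0.78, limma adjusted p = 0.0112). PIK3CB, a catalytic subunit of PI3-kinase, fell from 35 and 54 to 19 and 28 (-0.96, limma adjusted p = 0.00962).

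Feedback of TAM receptors on cytokine signals runs through interferon receptors and SOCS proteins. Of 6 tested genes 2 were higher (33.3%) and 1 lower (16.7%) in DZNep, against 22.4% and 20.4% over all genes. The median was -0.11. SOCS3, a suppressor of cytokine signalling, rose from 28 and 22 to 52 and 48 (0.91, limma adjusted p = 0.0140). TYK2, a Janus kinase, rose from 127 and 97 to 204 and 175 (0.69, limma adjusted p = 0.0454).

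The lipid that bridges to the ligands is phosphatidylserine, and 8 genes of its synthesis and exposure were tested. In DZNep 1 was higher and 2 lower (median -0.61), against 22.4% and 20.4% over all genes. PTDSS2, a phosphatidylserine synthase, was at 75 and 53 in Ctrl, 15 and 14 in DZNep and 40 and 37 in shEZH2, a fall of 2.12 in DZNep (SE 0.25, limma adjusted p = 0.000592). ATP11A, a flippase that keeps the lipid inside the membrane, rose from 19 and 21 to 45 and 36 (0.91, limma adjusted p = 0.0142). ANO6, a scramblase that exposes it, was called lower (-0.72, limma adjusted p = 0.0361), although its Ctrl values of 81 and 128 overlapped the DZNep values of 50 and 83. Within each replicate number ANO6 was lower in DZNep, but the numbers were not taken as pairs.

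Of 13 tested genes for the engulfment of dying cells, 5 were called higher (38.5%) and 1 lower (7.69%) in DZNep, with a median of 0.30, against 22.4% and 20.4% over all genes. RHOG, called higher, was at 8 and 6 in Ctrl, 16 and 16 in DZNep and 15 and 13 in shEZH2. ABCA7, also called higher, was at 7 and 5, 13 and 16, and 11 and 12. RHOG and ABCA7 passed the filter only through groups where they were above Ctrl. The share called higher is therefore not read as an excess. ITGB5, an integrin that receives bridged phosphatidylserine, was at 48 and 41 in Ctrl, 108 and 104 in DZNep and 49 and 46 in shEZH2, and rose by 1.17 in DZNep (SE 0.20, limma adjusted p = 0.00283). CRKL, an adaptor of the same route, rose from 95 and 93 to 211 and 198 (1.04, limma adjusted p = 0.00289). The list named for partners of protein S in coagulation control holds coagulation genes more broadly. Of its 4 tested genes, 2 were higher and 1 lower in DZNep, against 22.4% and 20.4% over all genes. These called genes are not given as partners of protein S. F3, tissue factor, rose from 184 and 233 to 389 and 490 (1.00, limma adjusted p = 0.00177). F2R, a thrombin receptor, rose from 14 and 15 to 34 and 43 (1.27, limma adjusted p = 0.00135). TFPI2, a protease inhibitor, fell from 51 and 61 to 17 and 29 (-1.36, limma adjusted p = 0.00206).

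**Figure D4:**
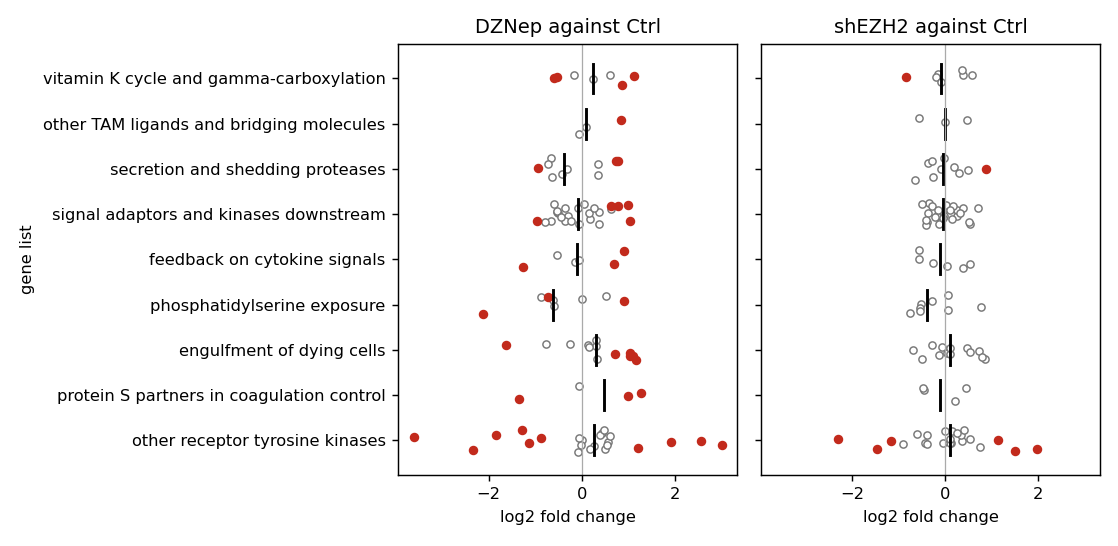
Log2 fold change of each tested gene in the 9 lists with tested genes, for DZNep and shEZH2 against Ctrl. The list named for protein S partners holds coagulation genes more broadly. Filled red points passed the limma test, open points did not, and black bars mark list medians, which run from -0.61 to 0.47 in DZNep and from -0.40 to 0.11 in shEZH2.

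The chromosomal surroundings of GAS6 were read for the 5 nearest genes of the table on each side. RASA3, a GTPase-activating protein for Ras and Rap whose nearer end is 114 kb from GAS6, was at 71 and 69 in Ctrl, 8 and 12 in DZNep and 31 and 31 in shEZH2. It had the order seen for GAS6, with the 3 groups apart, and fell by 2.79 in DZNep (SE 0.19, limma adjusted p = 7.25e-05) and by 1.20 in shEZH2 (SE 0.19, limma adjusted p = 0.0157). TMCO3, 270.3 kb away on the other side, fell from 57 and 71 to 29 and 43 in DZNep (-0.90, limma adjusted p = 0.00649), and its difference in shEZH2 was -0.39 (limma adjusted p = 0.211). Over all tested genes 20.4% were called lower in DZNep and 4.53% in shEZH2. How many genes elsewhere share the order of GAS6 was not counted, and a link to position was not tested.

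The other 4 tested neighbours did not pass the test in DZNep or shEZH2. DCUN1D2, TFDP1, CDC16 and UPF3A had log2 fold changes of 0.32, -0.02, 0.19 and -0.08 in DZNep, with limma adjusted p of 0.226, 0.926, 0.412 and 0.779. ADPRHL1, TMEM255B and CHAMP1 were too low to be tested. ADPRHL1 was at 9 and 8 in Ctrl, 2 and 1 in DZNep and 4 and 4 in shEZH2. TMEM255B, whose end is 3.55 kb from that of GAS6, was at 6 and 7, 4 and 3, and 6 and 5.

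The closest transcript is GAS6-AS2, called GAS6-DT in RefSeq, a noncoding RNA that begins 101 bases from the GAS6 start and runs away from it. It was at 1 and 1 in Ctrl, 6 and 4 in DZNep and 2 and 2 in shEZH2. Its values were too low to be tested, and they were lowest in Ctrl, where GAS6 was highest. GAS6-AS1, an antisense RNA over the 3′ part of GAS6, was not analysed here. The libraries were stranded, but the strand setting used in quantification is not given in the sources used here, so reads of GAS6 and GAS6-AS1 may not have been told apart.

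Genes with a profile like that of each member were found by the root mean square difference of log2 values over the 6 samples, after centring on Ctrl, among tested genes with a mean of at least 20 (6646 compared, and 6647 for MERTK). For GAS6 the nearest was PFKP, a phosphofructokinase of glycolysis, at 0.167, with 2969 and 2509 in Ctrl, 72 and 64 in DZNep and 441 and 433 in shEZH2. LMF1, a lipase maturation factor, followed at 0.285, then KLHL35 at 0.301, FBLN7, a fibulin of the matrix, at 0.304 and PIEZO2, a mechanosensitive channel, at 0.461. The FBLN7 values were 72 and 67, 2 and 1, and 12 and 11. In DZNep LMF1 was at 2 and 2, KLHL35 at 4 and 3 and PIEZO2 at 1 and 2. At such values the distances of these 4 genes depend on rounding and on the 1 added before the log. The GAS6 profile compared here is the one by which GAS6 was chosen.

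For AXL the nearest genes were RRAS, a Ras-family GTPase, at 0.150, PCK2, the mitochondrial phosphoenolpyruvate carboxykinase, at 0.152 and CFB, complement factor B, at 0.212. RRAS was at 121 and 88 in Ctrl, 19 and 16 in DZNep and 61 and 58 in shEZH2. TYRO3 was nearest to KIRREL, GINS2, a replication factor, and MFSD12 (0.064 to 0.066). GINS2 was at 44 and 36, 88 and 82, and 43 and 41. PROS1 was nearest to RAP2A, CYB5R4 and USP33 (0.028 to 0.045), which shared its replicate differences, RAP2A being at 50 and 86 in Ctrl and 32 and 65 in DZNep. MERTK was nearest to PDCD6, TOMM5 and PARL (0.025 to 0.042), all level across groups. These distances describe 6 samples and rest on no test.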

How the data were processed

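The 6 OVCAR8 RNA-Seq samples were placed in 3 groups of 2 from their labels. Per the methods of the study, ribosomal RNA was removed, libraries were stranded, and reads were processed with fastp, STAR on GRCh38 and RSEM. The deposited table gives each gene a score in each sample, which the authors had scaled to totals of 999956 to 1000068 and rounded. The kind of scaling is not given in the sources used here. Read depth is unknown, so no counting interval was computed, and rounding limits values near 10.

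A count test planned for this design could not be used on scaled values. TMM factors were computed without weights (30% trim of log ratios, 5% of means). Limma 3.58.1 (R 4.3.3) was fitted with a trend to log2(value + 1), two-sided, over all 6 samples and the 9671 genes reaching 10 in 2 samples. The script was tested on simulated data. The members and lists were chosen with earlier results of these data known. By rule, named list genes were the 2 highest and 2 lowest called genes whose mean was 20 or more, in each list and each contrast with Ctrl. VKORC1, MFGE8, ADAM10, ADAM17, FURIN, RHOG and ABCA7 were named outside this rule. So were the receptor kinases PTK7, FLT1, EPHA10, TIE1 and MST1R. Coordinates are from GENCODE release 44 and promoters from RefSeq (GRCh38.p14), in which 5 of 5 members matched by symbol. AXL and TYRO3 have 2 RefSeq entries each, and the one at the canonical start was used. Protein identity between members was not computed here. The 17 alternative settings are described in the closing section. The values of 1 called list gene are not reported here.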

Additional observations from a re-analysis of the deposited data

How the results depend on the processing

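Values of AXL in DZNep (-2.86 to -2.56) and in shEZH2 against DZNep (1.88 to 2.14), and of MERTK in DZNep and in the direct contrast, kept their direction and side of the threshold under all 17 alternatives. Each group had 2 samples, and the rounded values are of unknown depth. PROS1 and MERTK did not pass in the main fit, which does not show that they were unchanged. With replicate number as a block, the SE of PROS1 in DZNep was 0.22 against 0.30 in the main fit. Why these genes did not pass was not tested.

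The AXL call in shEZH2 was lost at -0.72 without a filter (limma adjusted p = 0.0677), with the filter at 5 (0.0518), without a trend (0.0606), with robust moderation (0.0559), with a pseudocount of 0.5 (0.0509) and with both shEZH2 samples merged into a single mean (0.370). Merging assumes that the lone sample varies like the other groups. A pseudocount of 5 gave GAS6 -4.79 in DZNep and 2.38 in shEZH2 against DZNep. TYRO3 in shEZH2 against DZNep passed at -0.89 with values as deposited (limma adjusted p = 0.0347) and at -0.87 with only the groups compared in the fit (0.0279).

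Replicate numbers were tested as pairs. Correlations of replicate deviations were 0.79 (Ctrl and DZNep), -0.024 (Ctrl and shEZH2) and -0.038 (DZNep and shEZH2), and no label ties the numbers to a shared batch, so they were not taken as pairs, although Ctrl and DZNep deviated together. With a replicate block PROS1 in DZNep passed at -0.57 (limma adjusted p = 0.0201) and TYRO3 in shEZH2 against DZNep at -0.87 (0.00132). Under the replicate block 2765 genes were called in shEZH2 and 2567 in the direct contrast, and 59, 32 and 22 pathway genes in DZNep, shEZH2 and the direct contrast. AXL and TYRO3 kept their DZNep calls.

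Over all genes limma called 4134 in DZNep, 815 in shEZH2 and 899 in shEZH2 against DZNep, and 38, 8 and 10 pathway genes. The shEZH2 counts were 1230 and 14 with values as deposited, 1536 and 13 with only the groups compared, and 39 and 2 with shEZH2 merged. The direct counts were 1441 genes with only the groups compared, and 72 genes and 0 pathway genes with shEZH2 merged, where 12 pathway genes had an unadjusted p under 0.05. At a log2 change above 1 and unadjusted P under 0.05, the counts were 2161 and 21 in DZNep, 513 in shEZH2, and 534 and 6 in the direct contrast.

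Leaving out each sample in turn gave GAS6 -5.52 to -5.05 in DZNep and -2.71 to -2.24 in shEZH2, AXL -0.86 to -0.57 in shEZH2, PROS1 -0.96 to -0.19 in DZNep and -0.35 to 0.45 in the direct contrast, TYRO3 0.68 to 1.13 in DZNep, -0.16 to 0.25 in shEZH2 and -1.06 to -0.63 in the direct contrast, and MERTK -0.12 to 0.03 in shEZH2. The reversed values were PROS1 at -0.35 without DZNep replicate 1, TYRO3 at -0.16 without Ctrl replicate 2, and MERTK at 0.029 without Ctrl replicate 1 and 0.0056 without shEZH2 replicate 1, none past the threshold. All-gene counts ran from 2868 to 4303 in DZNep, 35 to 1481 in shEZH2 and 79 to 1368 in the direct contrast, the lowest being without Ctrl replicate 2 in DZNep and without shEZH2 replicate 2 in the others, and pathway counts from 27 to 48, 1 to 13 and 0 to 10. The cause of these changes was not tested.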
